A study of Mus musculus with 3 samples.

Results

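The genes described here are 45 genes of mitosis, chosen by name from the 54735 gene symbols listed for the thymus sections, with no threshold on their measured values. They fall into 7 roles, described after the samples. All 45 were detected, and all had at least 100 UMIs in the cortex of the sections together. The sections came from female C57BL/6 mice that had been perfused through the heart with saline under anaesthesia. *Trp53*-/- (KO) mice lack p53 in every tissue, and *Trp53*+/+ (WT) mice carry both copies. KO and WT mice came from crosses of KO or heterozygous males with heterozygous females. There were 2 KO mice, labelled KO1134 (17 weeks old) and KO1308 (21 weeks old), and 1 WT mouse, labelled WT1101 (17 weeks old), with 1 thymus section each, and the sections are named by these labels. The sources used here disagree on the ages and raise a doubt whether the files of the 2 KO mice carry each other's labels, so which KO mouse and age a value belongs to is uncertain throughout, while KO against WT does not depend on it. Age and animal cannot be told apart in KO1308, and nothing measured the spread between WT animals. Transcripts were captured on slides with barcoded spots 4.8 µm apart and counted by unique molecular identifier (UMI). Spots falling in the same 27 µm square were added up to give a bin, and a bin was kept if it held at least 300 genes. A bin can hold several cells, so the values describe areas and not cells.

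Kept tissue comprised 12009 bins with 31120116 UMIs in KO1134, 16140 bins with 17585464 UMIs in KO1308, and 27104 bins with 40575395 UMIs in the WT section. Bins were assigned to a rim (within 4 bins of the outer tissue edge), cortex, medulla or B-cell zone from marker genes that do not include the 45. Left unassigned, and in none of these compartments, were 648, 673 and 473 bins of KO1134, KO1308 and WT1101. The cortex held 4909, 5911 and 16332 bins of KO1134, KO1308 and WT1101, and this order is kept wherever values of the 3 sections are listed. The B-cell zone held 1998 and 516 bins of the KO sections and none of the WT section. Levels are given as CPM, a gene's UMIs scaled to the total UMIs of the same bins in the usual way, with exact Poisson intervals that cover counting error only. A lower CPM can come from fewer cells of a type or from less RNA per cell, which cannot be told apart in such sums.

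Entry into mitosis is driven by CDK1 bound to B-type cyclins, and its end by the anaphase-promoting complex (APC/C), which marks cyclins and other proteins for destruction. Most genes of the process are transcribed late in the cell cycle, after DNA replication, by the MuvB complex with B-MYB and FOXM1, and are held down in resting cells by the related DREAM complex. p53 restrains them indirectly, largely through p21, the product of *Cdkn1a*. In the thymus, T cell precursors divide mainly in the cortex, whereas most thymocytes that reach the medulla no longer divide.

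The cyclins, CDK1 and its regulators comprise 6 of the 45 genes, *Ccna2*, *Ccnb1*, *Ccnb2*, *Cdk1*, *Cdc25c* and *Cks2*. The mitotic kinases and checkpoint genes, which drive spindle assembly and delay anaphase until all chromosomes are attached, are *Aurka*, *Aurkb*, *Plk1*, *Ttk*, *Bub1* and *Bub1b*. The APC/C and its substrates are represented by *Cdc20*, *Ube2c* and *Cdca3*. The genes of the centromere, kinetochore and passenger complex, where chromosomes meet spindle microtubules, are *Cenpa*, *Cenpe*, *Cenpf*, *Ndc80*, *Nuf2*, *Incenp*, *Birc5* and *Cdca8*. The spindle motors and microtubule binders are *Kif11*, *Kif2c*, *Kif4*, *Kif20b*, *Nusap1*, *Tpx2*, *Hmmr* and *Tacc3*. The genes of the central spindle and cytokinesis, the last step of division, are *Kif20a*, *Kif23*, *Prc1*, *Racgap1*, *Ect2* and *Anln*. The genes of chromosome structure and chromatin are *Mki67*, *Top2a*, *Smc2*, *Smc4*, *Ncapd2*, *Ncapg*, *Hmgb2* and *Hmgn2*. Of the 45, *Hmgb2*, *Hmgn2*, *Smc2*, *Smc4*, *Ncapd2* and *Cks2* are also used outside mitosis.

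The promoters of 38 of the 45 genes were in the RefSeq table of build GRCm38.p6, each covering 250 bases before to 50 bases after the gene's start. They were searched on both strands for the letters TTTGAA and TTCGAA (forms of the cell cycle homology region, the element that MuvB complexes bind) and CCAAT (the element of NF-Y). TTTGAA or TTCGAA was found in 30 of the 38 promoters (78.9%), against 19.4% of the 27025 promoters in the table. CCAAT was found in 30 of the 38 (78.9%), against 37.9% of all. Both were found in 26 of the 38 (68.4%), against 7.70% of all. A match describes letters and not binding. Promoters of 4 genes are shown. *Ccnb2*, *Ube2c* and *Hmgb2* had the highest cortex over medulla ratios of the 45 by the mean log2 ratio of the 3 sections, and *Bub1* shows the TTCGAA form. Capitals mark the 3 motifs, and a reverse-strand match reads TTCAAA or ATTGG. In the *Ube2c* promoter a forward and a reverse CCAAT overlap. The *Ccnb2* promoter lies at chr9:70421505-70421804, reverse strand, that of *Ube2c* at chr2:164769679-164769978, forward strand, that of *Hmgb2* at chr8:57511593-57511892, forward strand, and that of *Bub1* at chr2:127831810-127832109, reverse strand.
Ccnb2: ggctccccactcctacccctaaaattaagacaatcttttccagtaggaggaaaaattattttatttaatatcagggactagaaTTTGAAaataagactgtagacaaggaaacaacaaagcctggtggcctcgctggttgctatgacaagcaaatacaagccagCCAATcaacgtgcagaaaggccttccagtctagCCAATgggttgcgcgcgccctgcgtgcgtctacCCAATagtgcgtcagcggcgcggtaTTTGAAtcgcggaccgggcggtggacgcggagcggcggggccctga
Ube2c: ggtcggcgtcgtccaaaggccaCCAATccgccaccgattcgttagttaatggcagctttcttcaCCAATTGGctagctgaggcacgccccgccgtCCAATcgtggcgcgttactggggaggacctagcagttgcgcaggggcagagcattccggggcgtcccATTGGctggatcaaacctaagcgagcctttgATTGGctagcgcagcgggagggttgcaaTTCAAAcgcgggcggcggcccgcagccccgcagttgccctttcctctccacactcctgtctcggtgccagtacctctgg
Hmgb2: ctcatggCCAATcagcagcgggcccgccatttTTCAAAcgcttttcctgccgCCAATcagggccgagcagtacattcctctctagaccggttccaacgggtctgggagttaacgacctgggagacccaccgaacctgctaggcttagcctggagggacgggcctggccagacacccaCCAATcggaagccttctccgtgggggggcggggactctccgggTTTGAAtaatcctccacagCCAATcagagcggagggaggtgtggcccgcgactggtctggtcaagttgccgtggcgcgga
Bub1: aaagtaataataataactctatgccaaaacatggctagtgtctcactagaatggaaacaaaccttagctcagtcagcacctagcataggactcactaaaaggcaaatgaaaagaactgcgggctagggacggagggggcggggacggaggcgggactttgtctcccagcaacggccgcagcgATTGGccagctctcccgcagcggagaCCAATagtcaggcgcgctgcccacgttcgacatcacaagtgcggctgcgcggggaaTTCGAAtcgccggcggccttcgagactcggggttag

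The labels were checked first. In cortex, *Trp53*, the deleted gene, stood at 14.1 and 22.5 CPM in KO1134 and KO1308 and 82.8 CPM in WT. Both KO sections were below the WT section, and neither was at 0. The part of the gene that the allele removes is not given in the sources used here, so UMIs from the remaining transcript cannot be told from background. *Cdkn1a*, which encodes the cell cycle inhibitor p21, stood at 3.84 and 5.02 CPM in KO1134 and KO1308 and 9.16 CPM in WT in the same bins. The cortex of KO1134 had few transcripts of CD4+CD8+ thymocytes. *Rag1*, which cuts DNA for receptor gene rearrangement, stood there at 51.9 CPM, against 440.1 CPM in KO1308 and 715 CPM in WT. The 4 cortical epithelial markers (*Prss16*, *Psmb11*, *Ccl25* and *Tbata*), in contrast, summed to 2254, 2125 and 1866 CPM. The cortex score of KO1134 used 6 of the 7 cortex markers, these 4 among them, and its low level of thymocyte transcripts applies to every cortical value of that section. Medullary markers in cortex also differed, at 228, 459 and 70.6 CPM, against 1890.0, 1800.2 and 818 CPM in medulla.

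Among the compartments, the 45 genes were most abundant in cortex and rim, lower in medulla and lowest in the B-cell zone. In cortex they summed to 5776 CPM (95% interval 5736 to 5817) in KO1134, 7427 CPM (95% interval 7364 to 7490.2) in KO1308 and 9346 CPM (95% interval 9309 to 9383) in WT. In medulla they summed to 2785, 3320.5 and 4806 CPM. Each cortex lay above its own medulla, and even the WT medulla lay below both KO cortices. In the B-cell zone they summed to 1229 and 2746 CPM in the KO sections. On a map of the sections the medulla forms islands of low level inside the cortex, and in KO1134 most of the B-cell zone lies in a body of tissue beside the cortex.

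**Figure D1:**
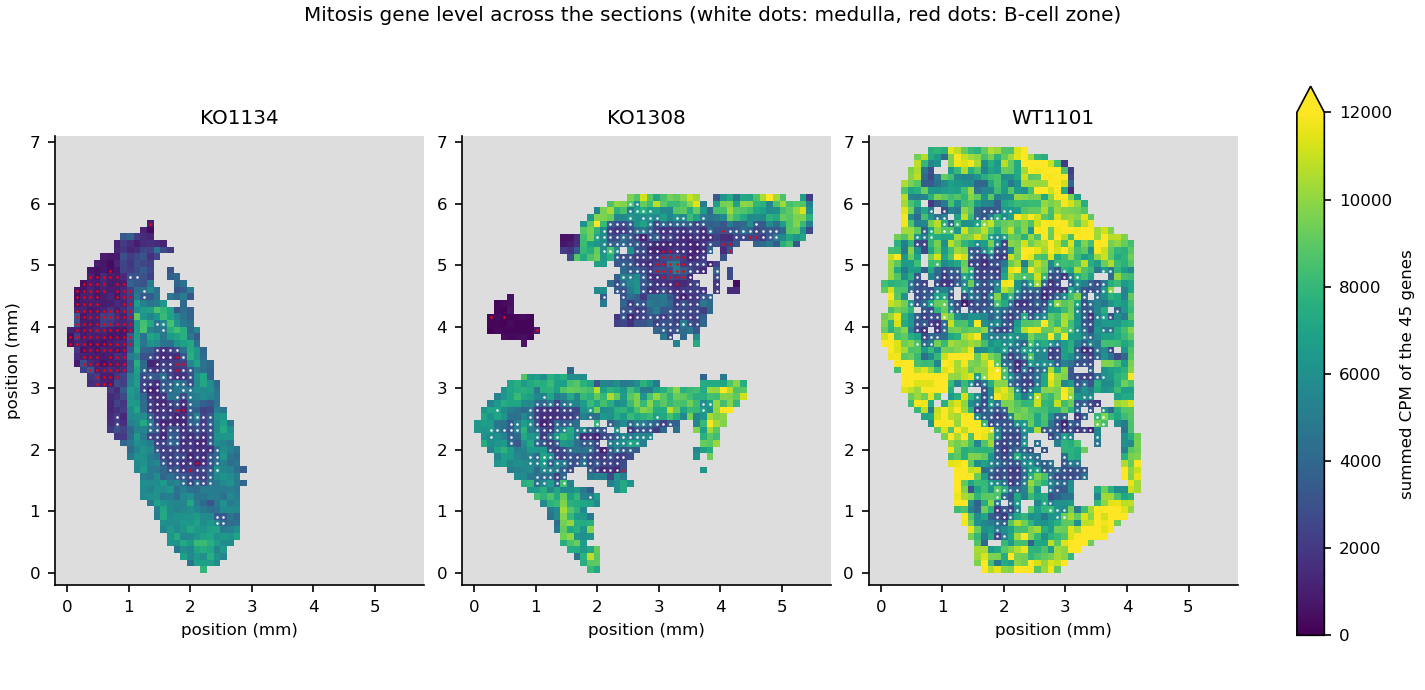
Summed level of the 45 mitosis genes across the 3 sections, in squares of 4 × 4 bins with at least 8 kept bins, coloured by CPM on one scale; axes give position in mm, white dots mark squares that are mostly medulla and red dots squares that are mostly B-cell zone. Medulla and B-cell zone are darker than cortex in each section where they occur, the B-cell zone of KO1134 lies mostly at one side of the tissue, and the WT section is brightest.

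**Figure D2:**
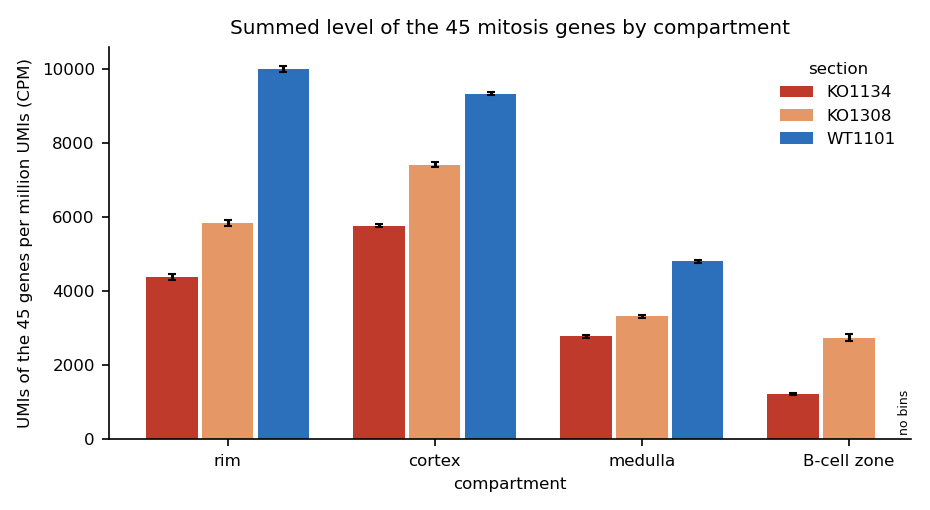
Summed CPM of the 45 genes (vertical axis, from 0) in each compartment (horizontal axis) of KO1134, KO1308 and WT1101; error bars are 95% Poisson intervals, which cover counting error only. Cortex is above medulla in all 3 sections, from 5776 against 2785 CPM in KO1134 to 9346 against 4806 CPM in WT, and WT has no B-cell zone bins.

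The first comparison was between cortex and medulla within each section. The summed level in cortex was 2.07 (95% interval 2.04 to 2.11) times that in medulla in KO1134, 2.24 (95% interval 2.20 to 2.27) times in KO1308 and 1.94 (95% interval 1.92 to 1.97) times in WT, with a mean of 2.09 ± 0.146 (SD, n = 3 sections). Each of the 45 genes was higher in cortex than in medulla in all 3 sections, against 28.1% of 16587 genes. With edgeR's quasi-likelihood test on the sums per section and compartment, with section as a term, 44 of the 45 genes were lower in medulla than in cortex at an adjusted p under 0.05, against 9.87% of the 18432 genes tested, and DESeq2 also called 44, against 10.9%. All 45 were lower at an unadjusted p under 0.05, against 16.9% of all genes. None was higher in medulla, against 14.7% of all genes with edgeR, 13.8% with DESeq2 and 20.4% at an unadjusted p under 0.05. The median log2 difference of the 45, medulla minus cortex, was -1.09, and that of all genes -0.03. Summed T cell genes (*Trac*, *Trbc1*, *Trbc2*, *Cd3d*, *Cd3e*, *Cd3g* and *Lck*) stood in cortex at 1.48, 1.94 and 1.40 times their medullary level (1 of the 7 passed the test). Genes of other cells also differed by edgeR. In medulla, 5 of 6 fibroblast, 3 of 6 myeloid, 2 of 5 endothelial and all 3 B cell genes were higher. So were 3 of 9 double-negative thymocyte genes (described below), 2 of 7 germinal centre genes tested, 2 of 7 plasma cell genes and 1 of 6 muscle genes. Of 7 genes of the pre-TCR stage 4 were lower, and of 6 adipocyte genes 1. The part of T cell density and other cell content in the result was not tested.

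All 7 roles showed the difference. Among cyclins, CDK1 and its regulators, *Ccnb2*, a B-type cyclin that activates CDK1, stood at 109.8, 172 and 245 CPM in cortex and at 47.7, 65.2 and 96.6 CPM in medulla (log2 difference -1.38, SE 0.22, edgeR adjusted p = 0.00170). *Cks2*, a small subunit that binds CDK1, stood at 139, 197 and 256 CPM in cortex and at 69.3, 92.9 and 121 CPM in medulla. For both genes the 3 cortical values lay above the 3 medullary values, and within every section the cortex was the higher by a similar factor. The medians of the cortex over medulla ratios of the 6 genes in this role were 2.04, 2.39 and 1.97.

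All 6 mitotic kinases and checkpoint genes had lower levels in medulla in each section, and 5 of the 6 passed the test. *Plk1*, a kinase that promotes mitotic entry and spindle assembly, stood at 71.8, 107.7 and 79.0 CPM in cortex and at 35.3, 50.9 and 42.5 CPM in medulla, and *Bub1b*, which encodes the checkpoint protein BUBR1, had ratios of 2.07, 2.35 and 1.84. *Ttk*, the checkpoint kinase MPS1, did not pass. It stood at 12.1, 25.5 and 14.3 CPM in cortex and at 8.68, 14.1 and 12.1 CPM in medulla, with a log2 difference of -0.60 (SE 0.23) and an edgeR adjusted p of 0.0795. It also had the fewest UMIs of the 45 in cortex, 724 over the 3 sections together, so its ratios are among the least precise.

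All 3 APC/C genes fell in medulla. *Ube2c*, the ubiquitin-conjugating enzyme of the APC/C, stood at 183, 266 and 325 CPM in cortex and at 75.8, 104 and 139.7 CPM in medulla (log2 difference -1.35, SE 0.22, edgeR adjusted p = 0.00184). Its ratios were 2.42, 2.55 and 2.33. *Cdca3*, whose product is degraded through the APC/C, had ratios of 2.19, 2.33 and 1.97. All 8 genes of the centromere, kinetochore and passenger complex fell as well. *Cenpa*, the centromeric histone H3 variant, had ratios of 2.05, 1.81 and 1.60, and *Birc5*, which encodes survivin of the passenger complex, 1.96, 1.99 and 1.79. All 8 spindle motors and microtubule binders fell, among them *Kif11*, the motor that pushes spindle poles apart, with ratios of 2.21, 2.24 and 2.09, and *Nusap1*, a microtubule-bundling protein, with ratios of 2.04, 2.25 and 1.78.

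All 6 genes of the central spindle and cytokinesis fell in medulla. *Kif23* and *Racgap1* encode the 2 subunits of centralspindlin, the complex that organises the central spindle, and had ratios of 1.87, 2.28 and 1.54 and of 1.94, 2.19 and 1.75. *Kif20a*, a kinesin needed for cytokinesis, had some of the lowest ratios, 1.70, 1.77 and 1.52. Among the 8 genes of chromosome structure and chromatin, all of which fell, *Mki67* encodes the Ki-67 protein that coats mitotic chromosomes. It stood at 428, 438 and 502 CPM in cortex and at 205, 182 and 291 CPM in medulla (log2 difference -1.11, SE 0.22, edgeR adjusted p = 0.00461). *Top2a*, the topoisomerase that untangles sister DNA, stood at 229.9, 486 and 479 CPM in cortex and at 118, 191 and 241 CPM in medulla (log2 difference -1.16, SE 0.19, edgeR adjusted p = 0.00204). For both, every cortical value lay above the medullary value of its own section, although the WT medulla exceeded the lowest KO cortex for *Top2a*. *Hmgb2*, a chromatin protein that thymocytes also make outside mitosis, had ratios of 2.38, 2.39 and 2.33, the most even of the 45 between sections. *Smc4*, a condensin subunit, had ratios of 1.64, 1.81 and 1.26, the lowest in this role in WT.

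**Figure D3:**
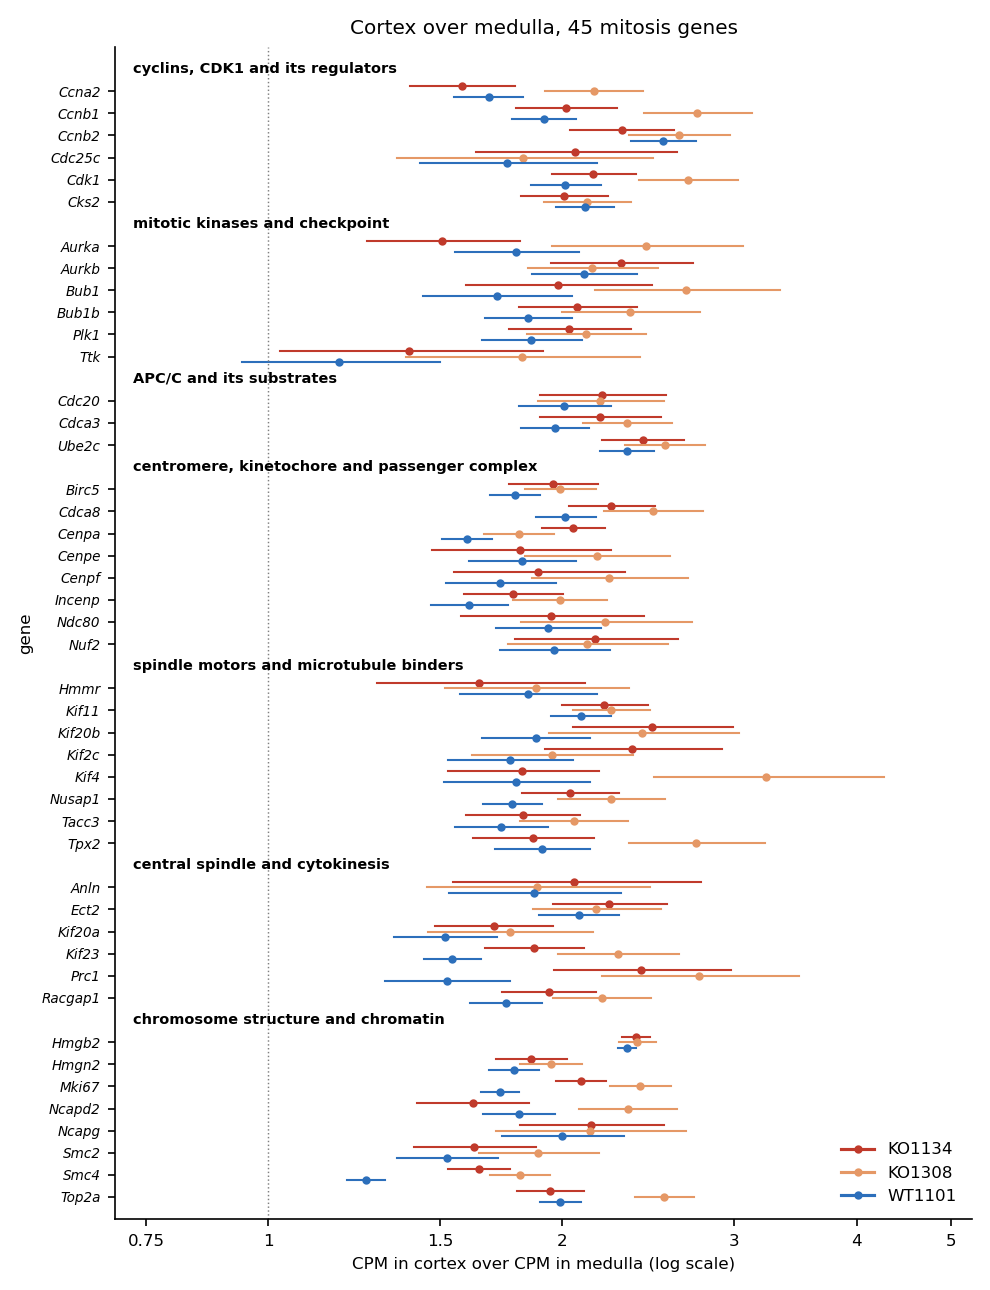
CPM in cortex over CPM in medulla (horizontal axis, log scale) of each of the 45 genes (vertical axis, by role) in the 3 sections, with exact 95% intervals that cover counting error only; the dotted line marks a ratio of 1. All points lie right of the line, from 1.18 for Ttk in WT to 3.23 for Kif4 in KO1308.

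Most other genes of mitosis and DNA replication were arranged in the same way, while brakes on mitotic entry were mixed. Of 50 further mitosis genes, 49 were lower in medulla and none higher, with a median log2 difference of -1.05. The exception was *Pttg1*, which encodes securin and had a log2 difference of 0.43 (edgeR adjusted p = 0.0681). Of 27 genes of DNA replication, 26 were lower in medulla, with a median of -0.84, which is smaller in size than that of the 45. Of the 11 genes of the MuvB, B-MYB and FOXM1 machinery, 9 were lower. Of 10 brakes on mitotic entry and p53 targets, 3 were higher and 1 lower, and *Cdkn1a* stood at 3.84, 5.02 and 9.16 CPM in cortex and 16.01, 14.2 and 21.6 CPM in medulla.

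The B-cell zone, present in the KO sections alone, held the lowest levels of the compartments. Its summed level was 0.213 (95% interval 0.208 to 0.218) of the cortical level in KO1134 and 0.370 (95% interval 0.356 to 0.384) in KO1308. With edgeR, 44 of the 45 genes were lower there than in cortex (adjusted p under 0.05), against 13.0% of all genes, and DESeq2 also called 44, against 12.4%. The same number was lower at an unadjusted p under 0.05, against 19.1% of all genes. None was higher, against 12.1% of all genes with edgeR, 12.3% with DESeq2 and 18.2% at an unadjusted p under 0.05. *Mki67* stood at 53.5 and 136 CPM (log2 difference -2.09, SE 0.28, edgeR adjusted p = 0.000441), and *Top2a* at 33.5 and 135 CPM (log2 difference -2.08, SE 0.24, edgeR adjusted p = 0.000203). *Smc4* was the exception, at 178 and 211 CPM (log2 difference -0.35, SE 0.16, edgeR adjusted p = 0.142), and *Kif20a* and *Kif23* had the next smallest log2 differences, -0.81 and -0.85. *Pttg1* was higher in the B-cell zone than in cortex (log2 difference 0.65, edgeR adjusted p = 0.0267), the only one of the 50 further mitosis genes that was. Germinal centre genes, which mark sites where B cells divide, summed to 134 and 306 CPM in the zone against 127 and 217 CPM in cortex. Genes of other cells also differed between the zone and cortex by edgeR. All 5 endothelial, 5 of 6 fibroblast and 5 of 6 adipocyte genes were higher. Of 7 genes of the pre-TCR stage 5 were lower, and of 7 T cell genes 1. Their part in the result was not tested.

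At the rim, KO and WT sections had ratios on different sides of 1, a difference between genotypes that was not tested. The summed level at the rim was 0.759 (95% interval 0.745 to 0.773) of the cortical level in KO1134, 0.787 (95% interval 0.774 to 0.800) in KO1308 and 1.07 (95% interval 1.06 to 1.08) in WT. Of the 45 genes, 38 were below their cortical level at the rim of both KO sections and above it at the rim of WT, against 12.7% of 15852 genes. With edgeR over the 3 sections, none of the 45 was called between rim and cortex, against 0.662% of all genes higher and 0.00543% lower. This fit takes 1 rim effect for all sections, so opposite differences in KO and WT can cancel in it. At an unadjusted p under 0.05 none was higher, against 6.03%, and 1, *Kif23*, was lower, against 3.73%. DESeq2 called none, against 1.78% higher and 0.0597% lower. *Mki67* stood at 333, 329 and 525 CPM at the rim, *Top2a* at 179, 382 and 523 CPM and *Kif23* at 69.5, 77.1 and 199 CPM. In both KO sections the rim lay below the cortex of the same section for each of these 3, and the WT rim lay above the WT cortex for *Mki67* and *Top2a* but not for *Kif23*. Adipocyte genes stood out at the rim of the KO sections. The 6 adipocyte markers, none at 0 in any rim, summed to 3046, 5065 and 123 CPM at the rim, against 468, 331 and 92.0 CPM in cortex, with *Fabp4* the most abundant. Their part in the result was not tested.

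The rim was therefore also described from cortex-scored bins alone, by distance from the outer edge. In the outermost 2 bins the 45 genes summed to 4762, 7013 and 9638 CPM, and between 4 and 8 bins from the edge to 5749, 8133 and 10005 CPM. Beyond 16 bins they summed to 5630.4, 5903 and 9013 CPM. The KO sections thus had their highest values in intermediate bands, and WT in the band from 2 to 4 bins. Adipocyte genes in the outermost band summed to 543, 3206 and 154 CPM. Some edges are ends of the listed spots and may not be edges of the organ. There were 125, 524 and 483 rim bins within 135 µm of such an end. Without them the rim over cortex ratios were 0.747, 0.716 and 1.07.

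**Figure D4:**
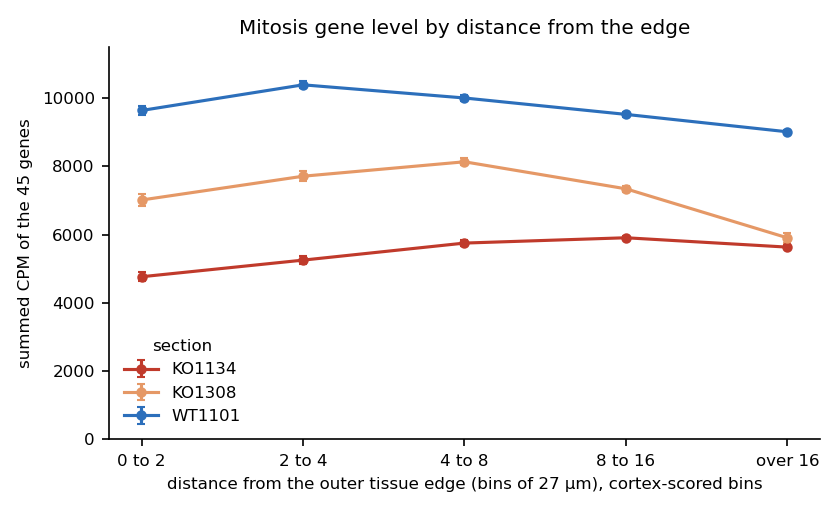
Summed CPM of the 45 genes (vertical axis, from 0) in cortex-scored bins of 5 bands of distance from the outer tissue edge (horizontal axis, in bins of 27 µm) for the 3 sections, with 95% Poisson intervals that cover counting error only. WT lies above both KO sections in every band, and the KO sections come closest beyond 16 bins, at 5630.4 and 5903 CPM.

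The second comparison set each KO cortex beside the WT cortex. The summed level of the 45 genes was 0.618 (95% interval 0.613 to 0.623) of WT in KO1134 and 0.795 (0.787 to 0.802) in KO1308, with a mean of 0.706 ± 0.125 (SD, n = 2). The intervals cover counting error, and 1 WT section gives no measure of the spread among WT mice. The edgeR fit of KO against WT in cortex had 1 residual degree of freedom and took the lone WT section to vary like the KO sections. It called none of the 45 genes, against 0.00513% of 19489 genes higher and 0.0103% lower. At an unadjusted p under 0.05 no member was higher, against 5.23% of all genes, and 1, *Kif23*, was lower, against 2.28%, close to the members' share. DESeq2 called no member, against 0.534% of all genes higher and 0.102% lower. These counts do not show that members were alike in KO and WT.

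*Hmgb2* weighed on the sum. It stood at 1453 and 1175 CPM in KO1134 and KO1308 and 2759 CPM in WT, and it had the most UMIs of the 45 in every compartment. Without *Hmgb2* the summed ratios to WT of the other 44 were 0.656 and 0.949, against 0.618 and 0.795 with it. Without *Hmgb2* and *Hmgn2*, both chromatin proteins, they were 0.658 and 0.938. Gene by gene, the median ratio of the 45 was 0.681 in KO1134, against 0.997 over all genes, and 1.00 in KO1308, against 1.10. The 45 thus sat below the run of genes in KO1134, and nearer to it in KO1308.

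Of the 45 genes, 20 were below WT in both KO cortices, against 30.2% of 15201 genes, 1 (*Kif4*, a chromosome-associated kinesin) was above WT in both, against 39.0%, and 24 were split. Past 1.5-fold, no member was above WT in both KO sections, against 15.4% of all genes. Below WT in both were 3 members, against 5.94% of all genes, which is close to the members' share. The 3 were *Hmgb2* with ratios of 0.526 (95% interval 0.518 to 0.535) and 0.426 (95% interval 0.416 to 0.436), *Kif23* with 0.502 (95% interval 0.473 to 0.533) and 0.536 (95% interval 0.497 to 0.578), and *Nusap1* with 0.521 (95% interval 0.492 to 0.551) and 0.632 (95% interval 0.590 to 0.676). In KO1134 alone, 21 members were past 1.5-fold below WT, against 21.5% of all genes, and none above, against 24.3%. In KO1308 alone, 3 were below, against 10.8%, and 2 above, against 26.4%.

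By role, the medians of the ratios to WT in KO1134 and KO1308 were 0.541 and 0.840 for cyclins, CDK1 and its regulators, 0.808 and 1.23 for mitotic kinases and checkpoint, 0.563 and 0.986 for APC/C and its substrates, and 0.607 and 0.973 for centromere, kinetochore and passenger complex. They were 0.756 and 1.09 for spindle motors and microtubule binders, 0.742 and 0.923 for central spindle and cytokinesis, and 0.619 and 0.981 for chromosome structure and chromatin. The kinases had the highest median in both sections. The 3 highest means over both KO sections were those of *Ttk*, *Bub1* and *Smc2*. *Bub1*, a checkpoint kinase of the kinetochore, stood at 31.1 and 53.7 CPM in KO1134 and KO1308 and 33.7 CPM in WT, so that KO1134 was near WT and KO1308 above it, at a ratio of 1.60 (95% interval 1.41 to 1.80). *Ttk* had ratios of 0.847 and 1.79, and *Smc2*, a condensin subunit, of 0.946 and 1.49.

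Genes in common use as markers of proliferation did not give 1 common pattern. *Mki67* stood at 428 and 438 CPM in KO1134 and KO1308 and 502 CPM in WT, so both KO sections were a little below WT and close to each other. *Top2a* stood at 229.9 and 486 CPM in KO1134 and KO1308 and 479 CPM in WT, so that one KO section was far below WT and the other beside it. *Cenpa* stood at 269, 271 and 270.3 CPM, with no section apart. *Birc5* stood at 129.9, 279 and 296 CPM, and *Cdca3* at 78.8, 199.96 and 176 CPM. In both, KO1134 was lowest. *Ccnb2* stood at 109.8, 172 and 245 CPM, *Ube2c* at 183, 266 and 325 CPM and *Ndc80*, which encodes a kinetochore protein that holds microtubules, at 31.7, 54.1 and 75.2 CPM. All of these 3 were below WT in both KO sections, with KO1134 lowest. The edgeR adjusted p of *Ndc80* was 0.678 (log2 difference -0.97, SE 0.46), that of *Mki67* 0.887 (-0.36, SE 0.53) and that of *Top2a* 0.831 (-0.59, SE 0.58).

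Further members of the spindle and the checkpoint also varied between the KO sections. *Plk1* stood at 71.8, 107.7 and 79.0 CPM and *Kif11* at 156, 261 and 242 CPM, with KO1134 lowest and KO1308 highest in both. *Bub1b* stood at 79.7, 86.1 and 104 CPM and *Cks2* at 139, 197 and 256 CPM. Both genes were below WT in each KO section. *Nusap1* stood at 114, 138 and 218 CPM and *Kif23* at 102, 109 and 204 CPM, the KO sections lying close to each other and far from WT, whereas *Racgap1*, the partner of *Kif23* in centralspindlin, stood at 117, 158 and 145 CPM, with KO1308 above WT. *Kif20a* stood at 67.4, 49.7 and 62.8 CPM, with KO1308 lowest. *Smc4* stood at 235, 361 and 381 CPM and *Smc2*, its partner in condensin, at 61.3, 96.6 and 64.8 CPM, so that KO1308 was below WT for the first and above it for the second. *Kif23* had the smallest edgeR p of the 45, unadjusted p = 0.0450 and adjusted p = 0.662 (log2 difference -1.09, SE 0.47).

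Ratios to WT were also listed by the letters found in the promoters. The 30 members whose promoter held TTTGAA or TTCGAA had median ratios to WT in cortex of 0.730 and 1.01, and the 8 whose promoter did not had medians of 0.541 and 0.908. The *Hmgb2* promoter printed above holds TTTGAA on both strands and 4 forward copies of CCAAT. That of *Bub1* holds TTCGAA and 2 copies of CCAAT, 1 on each strand. By the mean over both KO sections, the ratios to WT of these 2 genes lay near opposite ends of the 45.

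**Figure D5:**
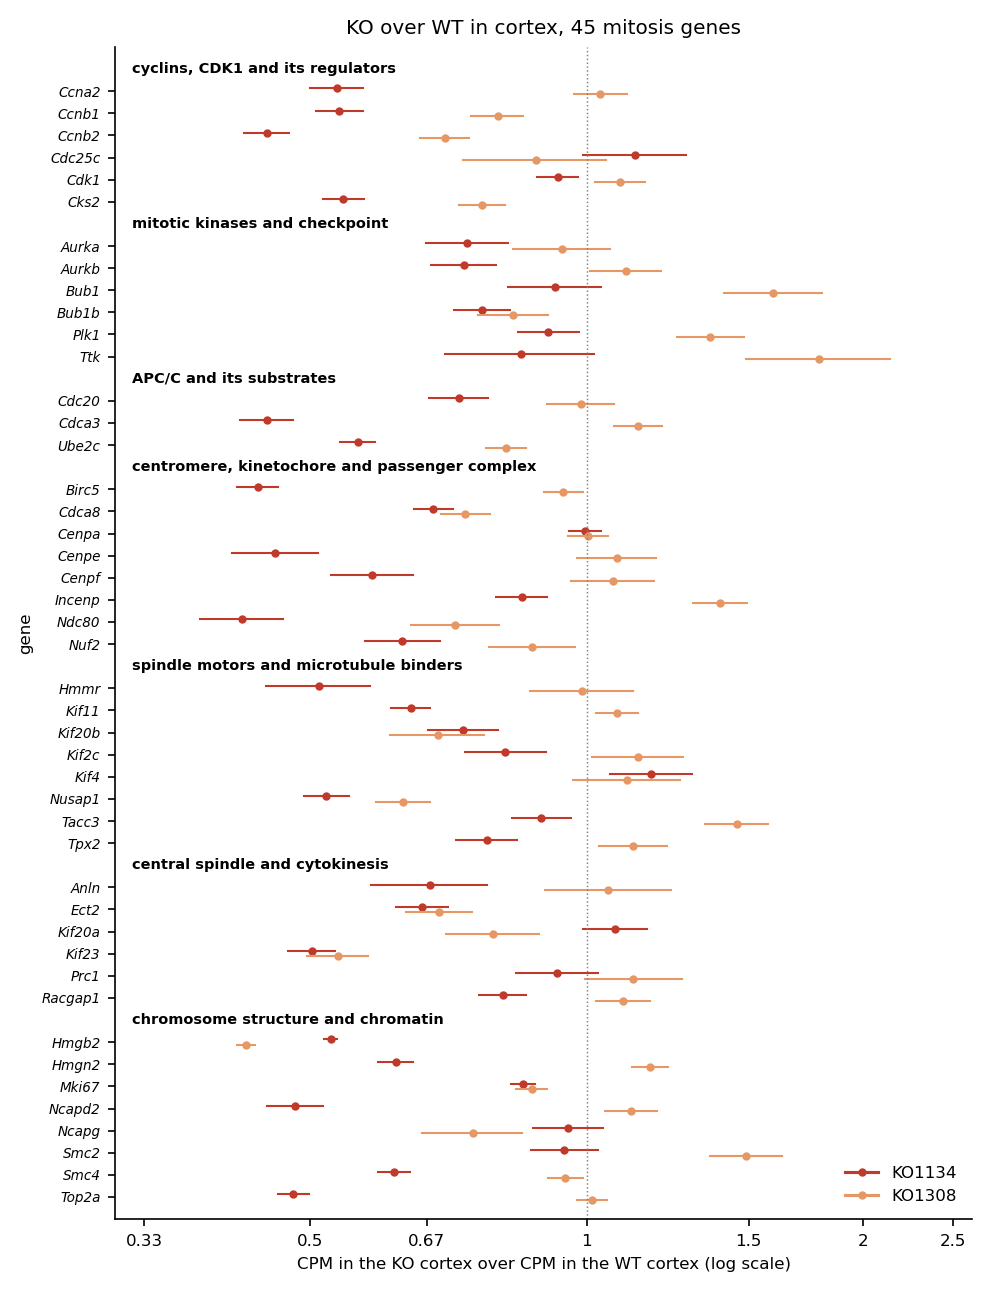
CPM in each KO cortex over CPM in the WT cortex (horizontal axis, log scale) of the 45 genes (vertical axis, by role), with exact 95% intervals that cover counting error only; the dotted line marks equal levels. Points of KO1134 lie left of the line for 42 genes and points of KO1308 for 22, and Hmgb2, Kif23 and Nusap1 lie far left in both.

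The KO sections differed from each other. In cortex, the summed level of KO1134 was 0.778 of that labelled KO1308, with a median over the 45 genes of 0.689, against 0.890 over all genes. Past 1.5-fold, 21 members were lower in KO1134, against 27.2% of all genes, and none higher, against 14.0%. *Birc5*, *Cdca3* and *Top2a* were among the former.

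Thymocyte genes also differed between the sections. The T cell genes summed to 4127, 6434 and 10353 CPM in cortex, or 0.399 and 0.621 of WT, which is lower than the ratios of the 45 mitosis genes. The 9 genes listed for double-negative thymocytes, the precursors that have not yet made CD4 or CD8, summed to 527, 274 and 111 CPM. Both KO sections were above WT. Of these 9 genes, 3 were higher in medulla than in cortex by edgeR. In the B-cell zone 3 were higher and 3 lower than in cortex, so the sum need not come from these precursors alone. The 27 replication genes were at 0.773 and 0.974 of WT, and the 50 further mitosis genes at 0.722 and 0.936. None of these 77 genes passed the edgeR test in cortex. Among brakes and p53 targets, *Ccng1*, a p53 target that encodes cyclin G1, stood at 62.8, 63.1 and 159 CPM and *Btg2*, an antiproliferative gene, at 74.5, 190.5 and 392 CPM, and none of the 10 passed the test in cortex. The part of cell composition in the ratios of the 45 genes was not tested.

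In medulla the summed level was 0.579 of WT in KO1134 and 0.691 in KO1308. Past 1.5-fold, 10 members were below WT in both, against 7.67% of all genes. The edgeR test called none of the 45, against 0.893% of all genes higher and 0.926% lower, with 7 members lower and none higher at an unadjusted p under 0.05, against 5.13% and 7.46% of all genes. DESeq2 called none, against 0.346% higher and 0.291% lower. Genes of other cells also differed between KO and WT medulla by the same test. Of 5 erythroid genes 4 were lower, of the 7 cortex-defining genes 3 and of 7 genes of the pre-TCR stage 2, while 3 of 9 double-negative thymocyte genes and 2 of 5 adipocyte genes tested were higher. Of 7 germinal centre genes tested 1 was lower, and of 7 plasma cell and 7 medulla-defining genes 1 each was higher. Of the 10 brakes and p53 targets 1, *Btg2*, was lower (log2 difference -1.74, SE 0.44, edgeR adjusted p = 0.0264). Their part in the result was not tested. Over all tissue, which in the KO sections includes more rim and the B-cell zone, the summed levels were 0.456 and 0.623 of WT, and 13 members were past 1.5-fold below WT in both, against 7.49% of all genes. The edgeR test again called none, against 0.0936% of all genes higher and 0.0223% lower, with 13 members lower and none higher at an unadjusted p under 0.05, against 4.52% and 7.86% of all genes. Of the marker lists, 4 of 6 adipocyte genes were higher in the same fit. DESeq2 called 1 member, *Hmgb2*, lower, against 0.567% of all genes lower and 1.61% higher.

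Depth per bin differed between sections, so bins were also compared after each was thinned to 500 UMIs. Cortex bins left out because they were shallower numbered 11, 621 and 1094, and medulla bins 4, 1027 and 1540. Shares before thinning are over all bins, with those left out, so the 2 shares cover different bins. A thinned cortex bin held a mean of 2.71, 3.67 and 4.44 UMIs of the 45 genes, and a thinned medulla bin 1.39, 1.68 and 2.30. At least 1 such UMI was found in 89.8, 95.9 and 96.1% of thinned cortex bins, against 98.6, 98.2 and 98.8% before thinning, and in 69.8, 75.3 and 83.4% of thinned medulla bins, against 98.3, 87.2 and 90.6% before. Thinned B-cell zone bins of the KO sections held such a UMI in 44.9 and 64.9% of cases, the lowest shares of the compartments compared here. Thinned bins left unassigned held one in 49.4, 51.5 and 91.4% of cases, so that in KO1308 they lay below the B-cell zone. Free RNA that moved between neighbouring spots cannot be told apart from RNA of the cells above them. Thinned cortex bins with a UMI of *Mki67* held 2.66, 3.62 and 4.69 UMIs of the other 44 genes on average, and bins without one 2.48, 3.43 and 4.07. The ratio of the former to the latter was 1.07, 1.06 and 1.15 in cortex, 1.17, 1.31 and 1.32 in medulla and, in the KO sections, 1.40 and 1.77 in the B-cell zone.

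Larger areas were compared in blocks. In blocks of 270 µm (117, 164 and 284 blocks), their summed level ran from 699 to 7513 CPM in KO1134, from 178 to 10996 CPM in KO1308 and from 2459 to 14007 CPM in WT. It correlated with the summed replication genes at r = 0.987, 0.951 and 0.947 across blocks, and with the T cell genes at r = 0.629, 0.904 and 0.696. Blocks of a section share a library and differ in depth and cell content, so these are descriptions. Of 6935 other genes with enough UMIs, the 10 whose pattern was most like the sum, by the smallest r of the 3 sections, were *Stmn1*, *Tmpo*, *Tuba1b*, *Pcna*, *Dut*, *Rrm2*, *Ptma*, *Fkbp5*, *C230088H06Rik* and *Tubb5*, with smallest r from 0.814 to 0.896. *Pcna*, *Dut* and *Rrm2* belong to DNA replication, and *Stmn1*, *Tuba1b* and *Tubb5* encode tubulins or a tubulin-binding protein. Of the 45 themselves, 40 had at least 500 UMIs in each section. Each member was correlated across blocks with the sum of the other 44, and the median r of these 40 was 0.820, 0.744 and 0.703. Their r ran from 0.622 (*Smc4*) to 0.955 in KO1134, from 0.483 (*Kif20a*) to 0.929 in KO1308 and from 0.424 (*Smc4*) to 0.954 in WT, so members followed the others to unequal degrees. The 5 members under this limit, *Ttk*, *Anln*, *Cdc25c*, *Kif4* and *Hmmr*, are too sparse for their r to be read.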

How the data were processed

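Spatial transcriptomes of 3 thymus sections were analysed. The deposited values are raw UMI counts per gene and spot, which the authors made with BSTMatrix and STAR on build GRCm38, and which carry no normalisation. Permeabilisation lasted 25 min for the WT section and 27 min for the KO sections. Spots were summed in 27 µm bins, and a bin was used if it held at least 300 genes and mitochondrial UMIs made up no more than 30%. Compartments were assigned from marker scores smoothed over 7 × 7 bins, and rows sharing a gene symbol were summed. Summed counts per section and compartment were tested with edgeR 4.0.16 (quasi-likelihood test, TMM, Benjamini-Hochberg adjustment over all genes, threshold 0.05) and with DESeq2 1.42.0 in R 4.3.3. Fits between compartments had 5 residual degrees of freedom over 11 sums and a term for section. Sections, and not bins, were the replicates, with 1 section per mouse. Ratio intervals are exact conditional binomial intervals. A 1.5-fold count used genes with at least 100 UMIs in the 3 sections together. Genes that define compartments were left out of the counts of calls between compartments. The members, gene lists and tests were chosen with earlier results of these data known. Values in every section were given for *Mki67*, *Top2a*, the 2 members with most UMIs in each role, and the 3 highest and 3 lowest by ratio to WT and by cortex over medulla ratio. Spatial likeness was Pearson's r over blocks with at least 50 bins, read only for genes with at least 500 UMIs in each section. Procedures were tested on simulated data. Alternatives covered bin size, gene minimum, marker set, neighbourhood, rim width, members and each section left out. Python 3.11.15 with numpy 2.4.6, scipy 1.17.1, pandas 2.3.3 and matplotlib 3.10.9 was used.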

Additional observations from a re-analysis of the deposited data

Results flagged for a closer look

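The summed level of the 45 genes at the rim, relative to cortex, was 0.759126 in KO1134, 0.786992 in KO1308 and 1.07229 in WT. Both KO sections moved one way and the WT section the other, and the difference between genotypes was not tested. The sections also differed at the rim in adipocyte genes, which summed to 3046 and 5065 CPM in the KO sections and 123 CPM in WT.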

How the results depend on the processing

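Every mean of summed ratios kept its side of 1 under all alternatives run, and no test was attached to these means. The mean cortex over medulla ratio ran from 1.996 to 2.16, the B-cell zone over cortex ratio from 0.213 to 0.370, the mean rim over cortex ratio from 0.773 to 0.943, and the mean KO over WT ratio in cortex from 0.618 to 0.801. Of the 45 members, 38 to 45 were called between cortex and medulla in either direction, the 38 out of 39 when the 6 members also used outside mitosis were left out. Over all genes, 4547 of 18452 were called in the main fit. Without the low-count filter 45 members were called and 5733 of 34497 genes in all. Without the WT section 39 of the 45 were called and 2153 of 17992 genes in all. In 14 alternatives 0 were called between KO and WT in cortex. Over all genes, the calls in these alternatives ran from 1 of 19256 with bins of 20 µm to 410 of 31596 without the low-count filter. DESeq2 called 112 of 17599. With bins of 50 µm, 6 members and not 3 were past 1.5-fold below WT in both KO sections. The share over all genes was not counted at that bin size, so whether the rise is particular to the members is not known. Leaving out 1 KO section moved the count below WT between 3 (without KO1134) and 21 (without KO1308), since a single section then decides it. The shares of all genes below WT in the section that remained were 10.8% and 21.5%. The count above WT was 2 without KO1134 and 0 without KO1308, against 26.4% and 24.3% of all genes. The rim without bins at the end of the listed spots was an alternative chosen after seeing the data. No paired analysis was possible because the labels match no KO mouse to the WT mouse. Replicate numbers were given in accession order and carry no pairing. Without a KO section the test of KO against WT has no residual degree of freedom, and without the WT section there is no comparison. With 1 WT section, effects of genotype, age, permeabilisation time, cell composition and section on the 45 genes cannot be told apart. Depth was not the limit for the sums, whose counting intervals were narrow, but the least counted members, such as *Ttk*, are known less precisely.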

Other observations

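Regulators of the mitotic genes were measured beside them. *Mybl2*, which encodes B-MYB, stood at 24.3, 24.1 and 23.4 CPM in cortex of KO1134, KO1308 and WT, with no section apart. *Foxm1* stood at 16.9, 32.2 and 24.2 CPM, with KO1134 lowest and KO1308 highest, the order seen for *Plk1* and *Kif11*. *Wee1*, a kinase that holds CDK1 inactive, stood at 25.1, 14.9 and 15.1 CPM, with KO1134 highest. *Mdm2*, a p53 target whose product degrades p53, stood at 61.6, 77.3 and 106 CPM, with both KO sections below WT. None of these passed the edgeR test of KO against WT in cortex.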
